A study of Mus musculus with 45 samples.

Results

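The 10 genes described here encode chaperones and co-chaperones of the cytosolic heat shock response together with its transcription factor, namely Hspa1a, Hspa1b, Hspa8, Hsph1, Hspb1, Dnajb1, Dnajb5, Hsp90aa1, Bag3 and Hsf1. They were taken as the rows of the deposited count table whose Ensembl identifiers carry these 10 symbols, out of 54532 rows, and each of the 10 had reads. The libraries came from primary hippocampal cultures of newborn C57BL/6N mice, in which AraC had been given on DIV 3 to limit dividing cells, and which were treated on DIV 10 or 11 per the labels (DIV 11 in the RNA-seq methods). Each of 5 culture preparations, numbered 1, 3, 6, 7 and 8, gave 1 library to each of 9 conditions, 45 in all. Control cultures were untreated. In the Bic groups, bicuculline (50 µM), a GABA-A receptor antagonist that sets off action potential (AP) firing, was present for 0.5, 1 or 2 h. In the short protocol (SP), tetrodotoxin (TTX, 1 µM), which blocks AP firing, was added after 0.5 h of Bic for another 0.5 h, alone (SP TTX) or with bath-applied NMDA at 30 µM (SP TTX/NMDA). In the long protocol (LP) the drugs were added after 1 h of Bic and left for another 1 h, as TTX (LP TTX), TTX and NMDA at the same doses (LP TTX/NMDA) or the glutamate uptake blocker TBOA at 50 µM (LP TBOA). Bic stayed in the medium in both protocols. Each gene was read in 5 kinds of comparison. AP firing was read from Bic against Control, the passive effect from TTX against Bic of the same total time, the active effect from TTX/NMDA against TTX, the total effect from TTX/NMDA against Bic, and the spillover effect from TBOA against 2 h Bic.

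The heat shock response is the transcriptional programme by which cells raise molecular chaperones when misfolded protein accumulates. HSF1, held inactive by chaperones in unstressed cells, binds heat shock elements, which are inverted repeats of the unit nGAAn, and drives inducible HSP70 genes. HSP70 proteins bind unfolded stretches of clients, J-domain proteins (HSP40) deliver clients and stimulate ATP hydrolysis, and HSP110 and BAG-domain proteins act as nucleotide exchange factors. HSP90 matures signalling proteins and small heat shock proteins hold aggregating clients. Neurons are known for a high constitutive level of HSC70, the product of Hspa8, and for a weak induction of the inducible HSP70 genes.

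Counted reads per library ranged from 11316580 to 81129276. The neuronal label of the cultures was borne out by the 8 neuron markers examined, all at or above 1 count per 1000000 counted reads (CPM) in every condition, while 7 of 7 astrocyte markers were also at or above that level, as against 1 of 6 microglia markers. The endothelial marker Cldn5 was near 0, with a mean of 0.0138 CPM, and the myelin gene Mog had 0.263 CPM. In 43 of the 45 libraries, the deviations from the condition mean over 13592 expressed genes were on average most like those of the same preparation in the other conditions. The libraries labelled SP TTX preparation 6 and LP TBOA preparation 6 were the exceptions, with mean correlations of 0.0799 and -0.164 with the other libraries of preparation 6, against 0.237 to 0.683 for the remaining 43 libraries and their own preparations. Their summed astrocyte marker level was 1098 CPM in each, while the other libraries of preparation 6 had 440 to 855 CPM. The calls in comparisons with these 2 libraries are therefore also given without preparation 6.

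Stretches of 150 bases upstream of the annotated start are shown for 5 members, namely Hspa1a and Hspa1b because they differ at almost no base there, Hsph1 as a further member with a heat shock element pair, and Dnajb1 and Bag3 as members with wide ranges of level and no such pair. The sequences are RefSeq's for build GRCm38.p6, read 5′ to 3′ on the gene's strand and ending at the base before the start, and capitals mark the repeat units of a heat shock element pair. The Hspa1a stretch is at chr17:34972157-34972306 (minus strand), Hspa1b at chr17:34959239-34959388 (minus), Hsph1 at chr5:149636337-149636486 (minus), Dnajb1 at chr8:83608025-83608174 (plus) and Bag3 at chr7:128523433-128523582 (plus).
Hspa1a: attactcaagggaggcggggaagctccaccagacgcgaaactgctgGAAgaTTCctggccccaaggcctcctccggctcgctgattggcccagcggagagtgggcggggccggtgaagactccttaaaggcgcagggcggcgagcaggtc
Hspa1b: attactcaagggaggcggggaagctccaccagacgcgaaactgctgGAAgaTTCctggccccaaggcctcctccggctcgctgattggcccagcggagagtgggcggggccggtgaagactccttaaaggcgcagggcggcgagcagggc
Hsph1: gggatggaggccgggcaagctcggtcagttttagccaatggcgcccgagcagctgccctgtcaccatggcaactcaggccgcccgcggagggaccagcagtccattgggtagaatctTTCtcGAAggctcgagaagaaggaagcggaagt
Dnajb1: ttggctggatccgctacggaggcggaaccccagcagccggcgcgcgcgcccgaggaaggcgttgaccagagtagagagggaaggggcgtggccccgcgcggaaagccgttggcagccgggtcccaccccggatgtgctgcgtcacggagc
Bag3: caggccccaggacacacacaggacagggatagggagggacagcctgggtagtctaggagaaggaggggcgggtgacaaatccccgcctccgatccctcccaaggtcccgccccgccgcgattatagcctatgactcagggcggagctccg

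The Hspa1a and Hspa1b stretches were identical at 149 of the 150 bases printed, and at 247 of 250 bases over the longer window that was searched. A heat shock element pair, searched on both strands as GAANNTTC or TTCNNGAA, stood from position -104 to -97 in both genes, counted back from -1 at the base before the start. In Hsph1 it stood from -33 to -26. Of the 7 members with an upstream window in the table, 4 held the pair within 250 bases, these 3 and Hspb1, while Dnajb1, Dnajb5 and Bag3 did not. Over all 32851 upstream windows of this length, 12.8% held it. A row of 3 units at this spacing occurred in 0.466% of windows and in none of the members' windows, and the cyclic AMP response element TGACGTCA in 1.55% of windows and in none of the members'. Its shorter form (TGACG or CGTCA), which the full element contains, was found in Hspb1, Dnajb1 and Dnajb5 and in 17.8% of windows. Hspa8, Hsp90aa1 and Hsf1 had no entry in the table. A match is a description of letters and no match says nothing of factor binding.

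Some members share sequence with other genes, which bears on their counts because reads with more than 1 alignment were discarded. Hspa1a (17:34969190-34972156) and Hspa1b (17:34956436-34959238), neighbours on the minus strand, had 54.2% and 55.8% of their 75-base transcript words in common with other genes, nearly all with each other, so their counts came from the distinct remainder. The shares were 32.8% for Hspa8 (9:40800984-40810087) and 42.8% for Hsp90aa1 (12:110690605-110702728), mostly with Gm15459 and Gm12346, and 46.4% for Hspb1 (5:135887919-135889563), with Hsp25-ps1. They were 0 for Hsph1 (5:149614287-149636376), Dnajb1 (8:83608193-83612653), Dnajb5 (4:42949814-42959425), Bag3 (7:128523616-128546981) and Hsf1 (15:76477422-76501913). Levels of the first 5 genes therefore rest on part of their length and are uncertain. The gene Gm20481 overlaps Hspa1a on the opposite strand, which the strand-specific counting separates.

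Levels per kilobase (kb) of exon differed widely among the members. The constitutive HSP70 gene Hspa8 was highest, with a mean over conditions of 264 CPM per kb, followed by the HSP90 gene Hsp90aa1 with 212 CPM per kb. Hsph1, an HSP110 gene, had 40.3 CPM per kb, the J-domain genes Dnajb1 and Dnajb5 28.3 and 21.7 CPM per kb, and the transcription factor gene Hsf1 3.61 CPM per kb. The inducible HSP70 genes were low, with 2.47 CPM per kb for Hspa1a and 2.35 CPM per kb for Hspa1b, and Bag3, a co-chaperone of HSP70 in selective autophagy, had 2.05 CPM per kb. The values of Hspa1a and Hspa1b divide by the full exon length, although reads from their shared parts were discarded. Their place below Hsf1 is therefore uncertain. Hspb1, a small heat shock protein gene, was close to the detection limit at 0.212 CPM per kb. Its reads numbered 0 to 20 per library, and the 1 library with 0 reads (Control, preparation 8) allows up to 0.156 CPM, counting error only. In such bulk libraries, fewer cells of a type and less RNA per cell cannot be told apart.

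**Figure D1:**
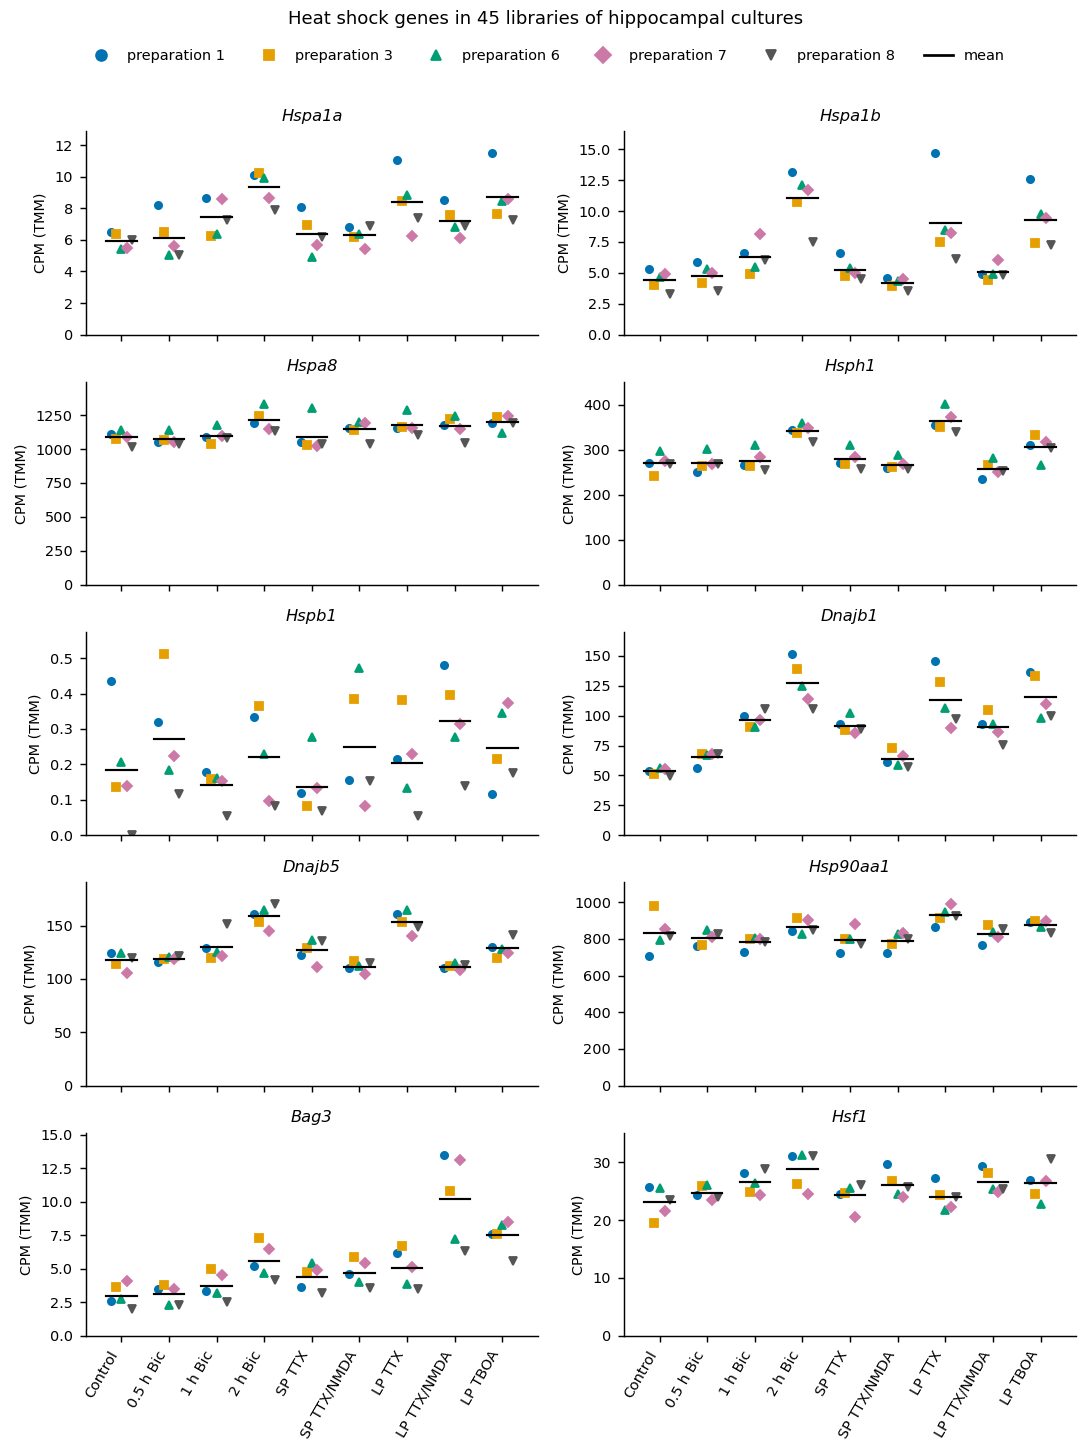
TMM-normalised CPM of the 10 genes in the 9 conditions, with 1 point per culture preparation and a bar at the mean of 5. Hspa8 and Hsp90aa1 stayed within 1.13 and 1.19-fold between the highest and the lowest condition mean, while Bag3 spanned 3.40-fold and peaked in LP TTX/NMDA, and Hspa1b spanned 2.64-fold and peaked at 2 h Bic.

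The number of members called higher than in Control grew with the time of AP firing. At 0.5 h of Bic none of the 10 passed the test, beside 0.289% of all genes tested, although 7 had a log2 fold change above 0. At 1 h, 1 member rose, Dnajb1, beside 1.16% of all genes called and 0.965% called higher. At 2 h, 7 of 10 rose and none fell, namely Hspa1a, Hspa1b, Hsph1, Dnajb1, Dnajb5, Bag3 and Hsf1, beside 9.02% of all genes called and 4.24% called higher. The members' median log2 fold change at 2 h was 0.40, against -0.01 over all genes tested, and 8.18% of the 13592 genes with a mean of at least 1 CPM were higher.

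Dnajb1, the J-domain protein that works with stress-inducible HSP70, was the earliest member to change. Its level in Control was 54.1, 51.5, 56.1, 55.7 and 49.7 CPM in preparations 1, 3, 6, 7 and 8, and at 1 h of Bic 99.6, 90.5, 90.7, 95.9 and 106 CPM. The ranges did not overlap, and the log2 fold change was 0.85 (SE 0.08, adjusted p = 1.14e-10, higher in 5 of 5 preparations). At 2 h the level was 152, 139, 125, 114 and 106 CPM, a mean of 127 ± 18.7 (SD, n = 5) against 53.4 ± 2.77 in Control, with preparation 1 highest in both of the 2 h LP conditions without NMDA as well. The log2 fold change at 2 h was 1.24 (SE 0.09, adjusted p = 1.64e-13). Already at 0.5 h, with 56.4, 67.8, 66.6, 67.5 and 67.6 CPM, every library exceeded every Control library, but the log2 fold change of 0.29 (SE 0.08) did not pass with edgeR (adjusted p = 0.281) and passed with DESeq2 (adjusted p = 0.00963).

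Hspa1b and Hspa1a, the stress-inducible HSP70 genes, rose at 2 h. Hspa1b went from 5.31, 4.03, 4.70, 4.88 and 3.28 CPM in Control to 13.1, 10.7, 12.1, 11.7 and 7.51 CPM at 2 h, with no overlap and a log2 fold change of 1.30 (SE 0.14, adjusted p = 7.87e-09). Hspa1a went from 6.53, 6.39, 5.42, 5.46 and 5.99 CPM to 10.1, 10.2, 9.94, 8.64 and 7.92 CPM, a log2 fold change of 0.65 (SE 0.12, adjusted p = 8.37e-05), again without overlap. At 1 h the log2 fold changes were 0.48 (SE 0.15, adjusted p = 0.153) for Hspa1b and 0.31 (SE 0.13, adjusted p = 0.516) for Hspa1a. With the preparation as a block, Hspa1b at 1 h passed (log2 fold change 0.49, adjusted p = 0.0289), in a fit that called 4.07% of all genes.

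The ratio of Hspa1b to Hspa1a, read from the distinct parts of the 2 genes, was 0.751 ± 0.153 (SD, n = 5) in Control and 1.17 ± 0.169 at 2 h of Bic. An exact two-sided permutation test of the log2 ratio, 5 libraries against 5, gave p = 0.00794 for this step, the smallest that the 252 splits allow, with a higher ratio in 5 of 5 preparations. After adjustment over the 11 comparisons of pairs of conditions the value was 0.0873. A single p at this floor cannot adjust to less, and the splits do not use the pairing of the preparations. This test could therefore not settle whether the 2 genes differ in response. The mean log2 ratio was 0.66 higher at 2 h of Bic than in Control. In LP TTX/NMDA the ratio was 0.714 ± 0.166, lower than the 1.06 ± 0.240 of LP TTX in 5 of 5 preparations (p = 0.0317, adjusted p = 0.0873, exact permutation test).

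Hsph1, whose product is a nucleotide exchange factor for HSP70, rose less. It read 271, 242, 298, 276 and 268 CPM in Control and 345, 338, 360, 348 and 317 CPM at 2 h. The 2 ranges were apart, with a log2 fold change of 0.32 (SE 0.08, adjusted p = 0.00336). The constitutive Hspa8 had 1087 ± 47.2 CPM in Control and 1211 ± 81.0 CPM at 2 h (SD, n = 5), and its log2 fold change of 0.14 (95% interval -0.01 to 0.29) did not pass (adjusted p = 0.323) except with the preparation as a block (0.15, adjusted p = 0.0403, in a fit that called 29.3% of all genes) and with DESeq2 (adjusted p = 0.0492).

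Among the remaining members, Dnajb5, another J-domain gene, rose from 124, 114, 124, 106 and 119 CPM to 161, 154, 165, 145 and 170 CPM at 2 h, a log2 fold change of 0.43 (SE 0.08, adjusted p = 8.54e-05) without overlap. Bag3 went from 2.61, 3.62, 2.71, 4.06 and 1.98 CPM to 5.17, 7.30, 4.65, 6.48 and 4.15 CPM, and its log2 fold change was 0.83 (SE 0.17, adjusted p = 0.000730). All 5 libraries at 2 h lay above the Control range. Hsf1 changed little, from 23.2 ± 2.62 to 28.9 ± 3.19 CPM (SD, n = 5), with overlapping ranges and a log2 fold change of 0.31 (SE 0.09, adjusted p = 0.0283), and its call was lost without preparation 1 (adjusted p = 0.0598) and without preparation 8 (adjusted p = 0.059). Hsp90aa1, the stress-responsive HSP90 gene, had 830 ± 99.6 CPM in Control and 866 ± 39.5 CPM at 2 h, a log2 fold change of 0.05 (95% interval -0.11 to 0.21, adjusted p = 0.779). Hspb1 was too low to read, with an interval of -0.64 to 1.39.

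In the short protocol, no member was called when AP firing was stopped with TTX, beside 0.268% of all genes, and 0 of 10 passed with DESeq2 or the block as well, with unadjusted p-values from 0.0672 (Hspa1b) upwards. Hspa1b had a mean of 5.23 CPM in SP TTX and 6.25 CPM at 1 h Bic, and was lower with TTX in 5 of 5 preparations. Adding NMDA lowered Dnajb1, the 1 of 10 members called for the active effect, beside 4.28% of all genes called and 3.32% called lower. Dnajb1 read 92.6, 88.4, 102, 85.2 and 88.5 CPM in SP TTX and 61.6, 73.3, 58.8, 66.0 and 57.0 CPM in SP TTX/NMDA, without overlap and lower in 5 of 5 preparations. The log2 fold change was -0.54 (SE 0.07, adjusted p = 3.89e-06), and -0.47 without preparation 6, whose SP TTX library did not resemble its preparation (adjusted p = 1.61e-05). The level of 63.4 ± 6.51 CPM (SD, n = 5) in SP TTX/NMDA was close to the 65.2 ± 4.95 CPM of 0.5 h Bic, the time at which the drugs were added.

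For the SP total effect, 2 members fell, beside 4.3% of all genes called and 3.41% called lower. Dnajb1 fell by 0.61 (SE 0.07, adjusted p = 1.54e-07) and Hspa1b by 0.58 on the log2 scale (SE 0.14, adjusted p = 0.00785). Hspa1b had 6.62, 4.93, 5.48, 8.18 and 6.05 CPM at 1 h Bic and 4.6, 3.95, 4.30, 4.53 and 3.53 CPM in SP TTX/NMDA, and the ranges did not overlap. Its mean in SP TTX/NMDA, 4.18 ± 0.441 CPM, was the lowest of the 9 conditions, next to the 4.44 ± 0.795 CPM of Control, and these 2 ranges overlapped. With the block, 3 members passed for the active effect and 4 for the total effect, in fits that called 16.2% and 27.3% of all genes. Those gained were Hspa1b (active, log2 fold change -0.32, adjusted p = 0.0373), Dnajb5 (active, -0.18, adjusted p = 0.0226, and total, -0.22, adjusted p = 0.00431) and, in the other direction, Bag3 (total, 0.33, adjusted p = 0.0145). Without preparation 6 the active effect had -0.34 for Hspa1b (adjusted p = 0.284) and -0.17 for Dnajb5 (adjusted p = 0.249), and with the block added (a setting chosen after seeing the data) -0.33 (adjusted p = 0.0286) and -0.16 (adjusted p = 0.0185). In that block setting the total effect on Bag3 no longer passed (0.33, adjusted p = 0.0529), and that on Dnajb5 did (-0.23, adjusted p = 0.0168).

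In the long protocol, the active effect called 5 of 10, beside 23.3% of all genes, with 4 lower (Hspa1b, Hsph1, Dnajb1 and Dnajb5) and 1 higher (Bag3), against 11.8% and 11.6% of all genes in these directions. Of the 13592 genes with a mean of at least 1 CPM, 46.9% were called, 26.9% lower and 20% higher, so that the members' count was close to this background. The median log2 fold change of the members was -0.19, that of all genes tested 0.11 and that of the genes with a mean of at least 1 CPM -0.01.

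Hspa1b read 14.7, 7.53, 8.47, 8.20 and 6.09 CPM in LP TTX and 4.89, 4.44, 4.94, 6.03 and 4.82 CPM in LP TTX/NMDA. Every library with NMDA was below every library without it, the log2 fold change was -0.84 (SE 0.16, adjusted p = 0.000239), and without preparation 1, whose LP TTX library was far above the other 4, it was -0.60 (adjusted p = 0.00285). Hspa1a, with 8.41 ± 1.81 and 7.18 ± 0.908 CPM (SD, n = 5), was lower in 5 of 5 preparations, but its log2 fold change of -0.21 (95% interval -0.47 to 0.04) did not pass (adjusted p = 0.280). With the counts of both genes summed into 1 row, the pair fell by 0.51 on the log2 scale (adjusted p = 0.00249).

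Hsph1 read 355, 350, 403, 373 and 339 CPM in LP TTX and 235, 267, 283, 250 and 254 CPM in LP TTX/NMDA, a log2 fold change of -0.51 (SE 0.07, adjusted p = 1.07e-06). Dnajb5 read 161, 154, 165, 141 and 149 CPM in LP TTX and 110, 112, 115, 108 and 113 CPM with NMDA, a log2 fold change of -0.47 (SE 0.06, adjusted p = 1.25e-06). In both genes the ranges were apart and every preparation moved down. Dnajb1 fell less, from 113 ± 23.2 to 90.6 ± 10.9 CPM with overlapping ranges (log2 fold change -0.33, SE 0.10, adjusted p = 0.0135), and its call was lost without preparation 1 (-0.24, adjusted p = 0.0827) and with a stricter filter on low counts (-0.30, adjusted p = 0.0588).

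The abundant chaperone genes and Hsf1 were not called. Hspa8 had 1173 ± 66.8 CPM in LP TTX and 1166 ± 76.2 CPM in LP TTX/NMDA (SD, n = 5), a log2 fold change of -0.02 with a 95% interval of -0.15 to 0.11. Hsp90aa1 was lower in 5 of 5 preparations, with 929 ± 45.1 and 829 ± 42.6 CPM, and its log2 fold change of -0.17 lay at the threshold (adjusted p = 0.0504). It passed with DESeq2 (adjusted p = 0.0131), with a stricter filter on low counts (-0.15, adjusted p = 0.0456) and with the block (-0.15, adjusted p = 0.00752), which called 62.1% of all genes. Hsf1, at 24 ± 2.13 and 26.6 ± 2.05 CPM, was higher in 5 of 5 preparations by 0.15 on the log2 scale (adjusted p = 0.212) and passed with the block (0.17, adjusted p = 0.00862).

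**Figure D2:**
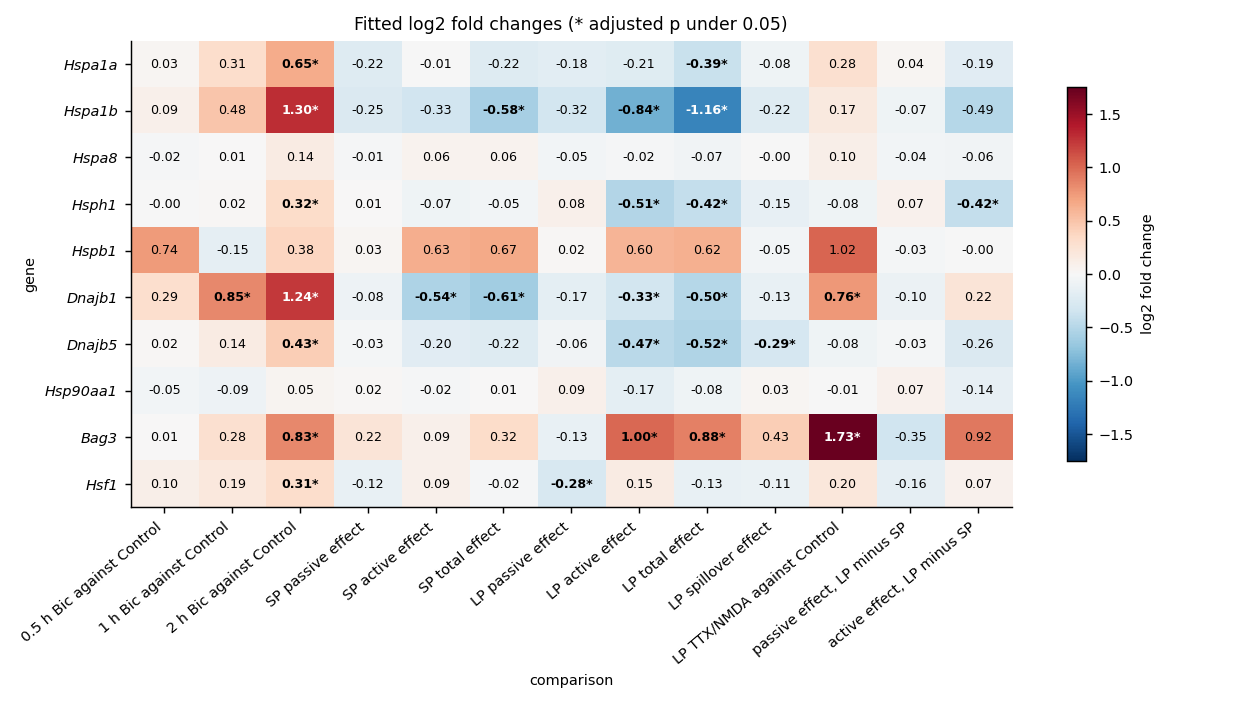
Fitted log2 fold changes of the 10 genes (rows) in the 11 comparisons of 2 conditions and the 2 tests of a difference between protocols (columns), with red for higher, blue for lower and an asterisk where the adjusted p passed. The column for 2 h Bic has 7 positive calls, and in the LP active and LP total columns Bag3 is the only positive call beside 4 and 5 negative ones.

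Against uninterrupted 2 h Bic, the LP total effect called 6 members, 5 lower and 1 higher, beside 22.8% of all genes, with 11.1% and 11.7% in these directions. Hspa1a (-0.39, SE 0.12, adjusted p = 0.0119), Hspa1b (-1.16, SE 0.13, adjusted p = 2.11e-08), Hsph1 (-0.42, SE 0.07, adjusted p = 1.05e-05), Dnajb1 (-0.50, SE 0.09, adjusted p = 2.86e-05) and Dnajb5 (-0.52, SE 0.07, adjusted p = 1.19e-07) fell, and Bag3 rose by 0.88 (SE 0.17, adjusted p = 0.000120). The Hspa1a call was lost without preparation 3 (adjusted p = 0.0662), 6 (adjusted p = 0.0777) or 7 (adjusted p = 0.0501). These comparisons share the 2 h Bic libraries with the comparison of 2 h Bic against Control, so that a high 2 h Bic library enters both.

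Compared directly with Control, LP TTX/NMDA showed 2 of 10 members higher and none lower, beside 19.5% of all genes called and 10.9% called higher. These were Dnajb1 (0.76, SE 0.09, adjusted p = 2.72e-08) and Bag3 (1.73, SE 0.18, adjusted p = 4.08e-09). For Hsph1 (95% interval -0.24 to 0.09), Dnajb5 (-0.23 to 0.08) and Hspa1b (-0.13 to 0.46) no difference from the untreated level was detectable. With the block, which called 47.2% of all genes, Hspa1a (0.27, adjusted p = 0.0233) and Hsf1 (0.21, adjusted p = 0.0399) passed as well.

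**Figure D3:**
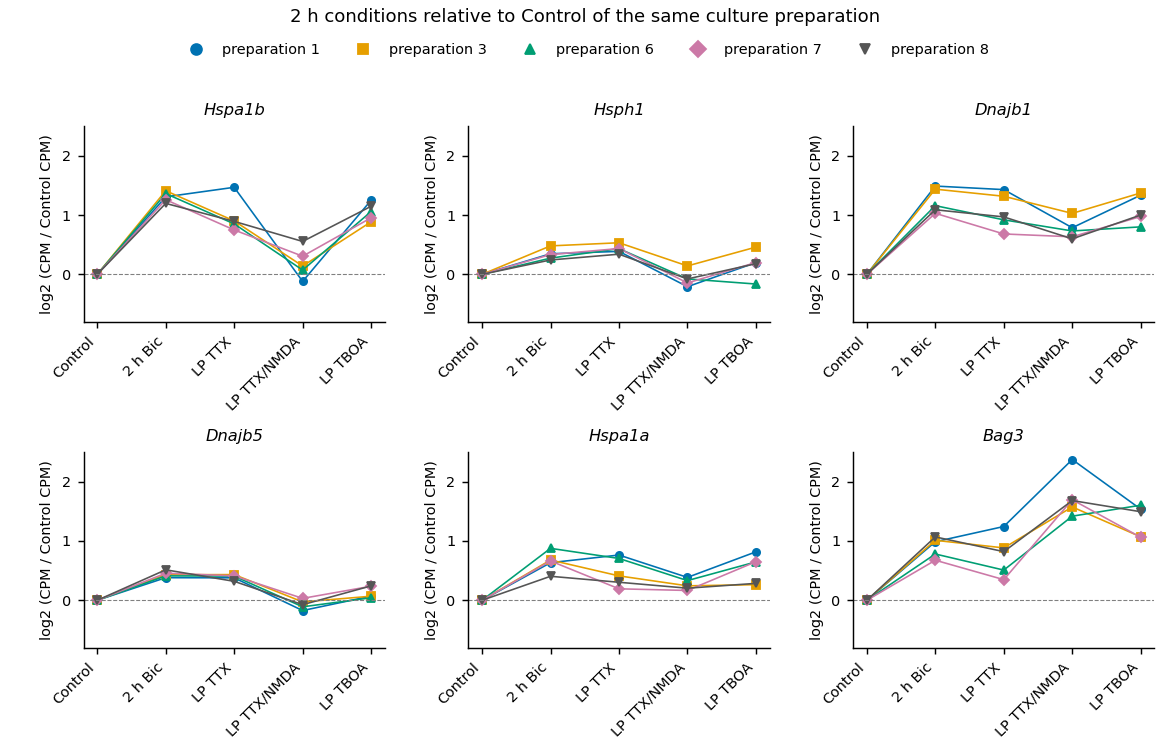
Level of 6 genes in Control and the 4 conditions of 2 h in all, as log2 of the ratio of CPM to Control of the same preparation, with lines joining the 5 conditions of each preparation. From LP TTX to LP TTX/NMDA the lines go down in 5 of 5 preparations for Hspa1b, Hsph1, Dnajb1, Dnajb5 and Hspa1a, and up in 5 of 5 for Bag3.

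Bag3 was the 1 member called higher for the LP active effect in the test without a block. It read 6.18, 6.68, 3.86, 5.17 and 3.49 CPM in LP TTX and 13.5, 10.8, 7.24, 13.1 and 6.34 CPM in LP TTX/NMDA. The highest LP TTX library lay above the lowest LP TTX/NMDA library, but each preparation was higher with NMDA, and the log2 fold change was 1.00 (SE 0.18, adjusted p = 9.17e-05), between 0.91 and 1.11 with each preparation left out in turn. In the short protocol, Bag3 had 4.39 ± 0.934 CPM in SP TTX and 4.70 ± 0.981 CPM in SP TTX/NMDA (SD, n = 5), a log2 fold change of 0.09 with a 95% interval of -0.21 to 0.39. With TBOA it read 7.57, 7.61, 8.23, 8.47 and 5.56 CPM, above its own 2 h Bic library in 5 of 5 preparations, but the log2 fold change of 0.43 (SE 0.13) did not pass (adjusted p = 0.211).

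Markers of glia moved with the LP active effect too. All 7 astrocyte markers were called higher in LP TTX/NMDA than in LP TTX, by 0.76 to 1.39 on the log2 scale (median 0.85), and their summed level ranged from 453 to 938 CPM in LP TTX and from 855 to 1704 CPM in LP TTX/NMDA. Of 6 oligodendrocyte lineage markers 4 were higher (summed level 99.0 to 166 and 156 to 309 CPM), of 6 endothelial and fibroblast markers 3 (63.4 to 133 and 80.7 to 192 CPM), and of 6 microglia markers 1 (3.73 to 5.34 and 3.91 to 5.94 CPM). Of 8 neuron markers, 3 were lower and none higher, with summed levels of 7676 to 8558 and 6674 to 7263 CPM. In the LP total effect 6 of 7 astrocyte and 4 of 6 oligodendrocyte lineage markers were higher, and against Control 7 of 7 and 4 of 6. Their part in the Bag3 result and in the falls of the other members was not tested. At 2 h Bic against Control, where Bag3 also rose, 1 of 7 astrocyte markers was higher, Sox9, and the summed level was 440 to 810 CPM in Control and 561 to 937 CPM at 2 h Bic. With the block, which called 29.3% of all genes, 4 of 7 astrocyte markers were higher there. So were 1 of 5 oligodendrocyte lineage and 2 of 5 endothelial and fibroblast markers tested, and none of these lists had a lower call. Of 8 neuron markers 2 were higher and 1 lower. The part of such shifts in the Bag3 rise at 2 h was not tested.

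**Figure D4:**
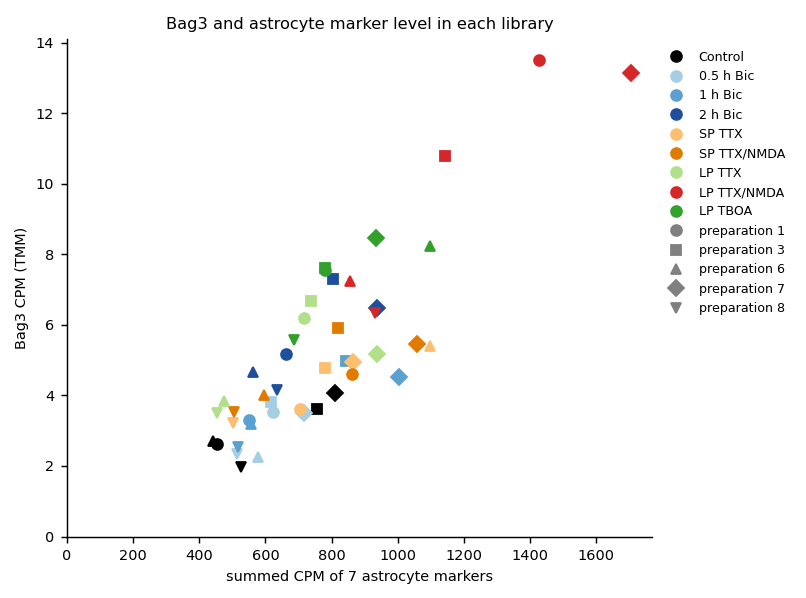
Bag3 CPM against the summed CPM of the 7 astrocyte markers in the 45 libraries, coloured by condition and with 1 symbol per preparation. The 5 LP TTX/NMDA libraries lie at 855 to 1704 CPM of astrocyte markers and 6.34 to 13.5 CPM of Bag3, and libraries of the same preparation in other conditions lie lower on both axes except for the 2 of preparation 6 in SP TTX and LP TBOA.

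TTX alone in the long protocol called 1 of 10 members, beside 4.65% of all genes called and 1.62% called lower. Hsf1 had 31, 26.3, 31.3, 24.6 and 31.1 CPM at 2 h Bic and 27.2, 24.4, 21.8, 22.3 and 24 CPM in LP TTX, with overlapping ranges. It fell by 0.28 (SE 0.08, adjusted p = 0.0421) in 5 of 5 preparations, and the call was lost without preparation 6 (-0.21, adjusted p = 0.278), 7 (adjusted p = 0.0511) or 8 (adjusted p = 0.0795) and in a fit of all 45 libraries (adjusted p = 0.0579). With the block, which called 32% of all genes, Hspa1b (-0.36, adjusted p = 0.00422) and Dnajb1 (-0.19, adjusted p = 0.00291) passed as well, 3 in all, and without preparation 1 Hspa1b passed (-0.48, adjusted p = 0.0332). The level of Hspa1b in LP TTX, 8.99 ± 3.31 CPM (SD, n = 5), remained above Control in 5 of 5 preparations.

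TBOA called 1 member, beside 0.602% of all genes called and 0.549% called lower. Dnajb5 had 161, 154, 165, 145 and 170 CPM at 2 h Bic and 130, 120, 128, 125 and 141 CPM with TBOA, every TBOA library below every Bic library, and the log2 fold change was -0.29 (SE 0.06, adjusted p = 0.0104). Without preparation 6, whose TBOA library stood apart, it was -0.28 (adjusted p = 0.0478). Hspa1b, Hsph1 and Dnajb1 were lower in 5 of 5 preparations, with log2 fold changes of -0.22, -0.15 and -0.13 that did not pass, and without preparation 6 they had -0.20, -0.08 and -0.08. Bag3 passed with the block (0.44, adjusted p = 0.0455, in a fit that called 2.67% of all genes) and without preparation 8 (0.44, adjusted p = 0.0284), while without preparation 6 it had 0.33 (adjusted p = 0.764), and 0.35 with the block added (adjusted p = 0.0259).

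Whether an effect differed between the protocols was tested as an interaction over 20 libraries. For the passive effect no member passed, beside 0.256% of all genes, with the same count of 0 in DESeq2 and the block and with unadjusted p-values from 0.160 (Bag3) upwards. For the active effect 1 member passed, beside 2.57% of all genes called and 1.85% called lower, namely Hsph1, which fell by 0.42 more in LP than in SP (SE 0.09, adjusted p = 0.00488, in 5 of 5 preparations). In SP its log2 fold change had been -0.07, with 279 ± 20.6 CPM in SP TTX and 267 ± 12.8 CPM in SP TTX/NMDA (SD, n = 5). Without preparation 6 the difference was -0.44 (adjusted p = 0.00429). The rise of Bag3 was 0.92 larger in LP (SE 0.26), at the threshold with edgeR (adjusted p = 0.0504), and passed with DESeq2 (0.91, adjusted p = 0.0332), with the block (0.95, adjusted p = 0.00208) and with all 45 libraries in the fit (0.91, adjusted p = 0.0485). Without preparation 6 it was 0.78 and did not pass (adjusted p = 0.159), and 0.81 with the block added (adjusted p = 0.00458). Dnajb5 fell by 0.26 more in LP (adjusted p = 0.129) and passed with the block (-0.27, adjusted p = 0.00279), as did Hsp90aa1 (-0.15, adjusted p = 0.0412), in a fit that called 25% of all genes. With the block and without preparation 6, Dnajb5 passed (-0.27, adjusted p = 0.00708) and Hsp90aa1 did not (-0.12, adjusted p = 0.159), and without a block Dnajb5 had -0.27 (adjusted p = 0.211) and Hsp90aa1 -0.13 (adjusted p = 0.725). Dnajb1, in contrast, had -0.54 in SP and -0.33 in LP, a difference of 0.22 (95% interval -0.04 to 0.49) that did not pass, and 0.12 without preparation 6. The protocols differ in the time before and after the addition of the drugs, and the influence of each cannot be told apart.

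The order of the condition means differed by member. For Dnajb1 it ran from Control through SP TTX/NMDA, 0.5 h Bic, LP TTX/NMDA, SP TTX, 1 h Bic, LP TTX and LP TBOA to 2 h Bic, and the neighbours Control and SP TTX/NMDA, and 0.5 h Bic and LP TTX/NMDA, did not overlap. In the other 9 members every pair of neighbours in the order overlapped. Hspa1b was lowest in SP TTX/NMDA and Control and highest in LP TBOA and 2 h Bic, Hsph1 was lowest in both NMDA conditions and highest in 2 h Bic and LP TTX, and Dnajb5 was lowest in both NMDA conditions and highest in LP TTX and 2 h Bic. Bag3 ran from Control to LP TBOA and LP TTX/NMDA.

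Other chaperone genes were read from lists of 54 genes in all. At 2 h Bic, 3 rose and 3 fell of the 54, with a median log2 fold change of -0.02, beside 9.02% of all genes and 18.6% of those with a mean of at least 1 CPM. Those that rose were Dnajb4, a J-domain gene (0.95, SE 0.07, adjusted p = 3.19e-12), Unc45a, a myosin co-chaperone that binds HSP90 (0.76, SE 0.08), and Hspa14 (0.50, SE 0.08). Those that fell were Hspa13, a microsomal HSP70 (-0.34), the HSP90 co-chaperone Chordc1 (-0.26) and Bag4 (-0.24). Dnajb4 already rose at 1 h (0.36, adjusted p = 0.00490), the only one of the 54 to pass at that time, and fell with NMDA in the short protocol (-0.32, adjusted p = 0.00388), as Dnajb1 did.

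For the LP active effect, 5 of the 54 rose and 13 fell, with a median of -0.06, beside 23.3% of all genes and 46.9% of those with a mean of at least 1 CPM, shares between which the list lies. Of 8 further HSP70 and HSP110 genes 4 fell, among them Hspa12a (387 ± 25 to 206 ± 29 CPM, SD, n = 5, -0.92, adjusted p = 4.42e-10), Hspa4l (-0.61) and Hspa4 (-0.50), the last 2 being HSP110 genes like Hsph1. Of 8 J-domain genes 2 fell, of 11 HSP90 and co-chaperone genes 4 fell, and of 8 subunits of the TRiC chaperonin 1 fell. Of 6 small heat shock protein genes 2 rose, Hspb8, the partner of BAG3 (5.53 ± 1.76 to 9.6 ± 2.82 CPM, 0.79, adjusted p = 0.00153), and Cryab (0.65, adjusted p = 0.000825). Of 7 BAG and HSP70 regulator genes 2 rose and 1 fell, the latter Bag4 (-0.61, adjusted p = 4.33e-07). In the short protocol (9.54% of genes with a mean of at least 1 CPM called) none of the 54 rose and 3 fell with NMDA (Hspa12a, Dnajb4 and Hspa4l), and in the test between protocols Hspa4l (-0.34, adjusted p = 0.0413) and Hspa4 (-0.34, adjusted p = 0.0391) passed, beside 6.09% of such genes. In the SP total effect 2 rose and 4 fell, beside 9.38% of such genes called. TTX alone in the long protocol gave 4 higher and 2 lower (10.4%), the LP total effect 5 higher and 11 lower (45.3%) and LP TTX/NMDA against Control 7 of each (36.8%). With TBOA 1 fell (Unc45a, -0.30), beside 1.37% of such genes.

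Among genes with a mean of at least 1 CPM, the 5 with the pattern over the 9 condition means most like that of Bag3 were Dio2 (Pearson's r = 0.991), Ezr (0.984), Csrp1 (0.982), Chst3 (0.979) and C130074G19Rik (0.978), and each was highest in LP TTX/NMDA. For Hspa1b they were Tsc22d2 (0.989), Samd4b (0.988), Shisa2 (0.987), Josd1 (0.986) and Jade2 (0.985), each highest at 2 h Bic and lower in LP TTX/NMDA than in LP TTX, with log2 fold changes of -0.96 to -0.47. These are the extremes of 13592 genes over 9 points that share preparations, and are given as a description.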

How the data were processed

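Poly(A)-selected, strand-specific RNA of the 45 libraries was sequenced as single ends of 75 cycles. Per the study's methods, the authors demultiplexed with bcl2fastq (version 2.20.0.422), aligned with STAR (2.5.4b) to GRCm38 with Ensembl release 94 and assigned reads to genes with featureCounts (1.6.5), leaving out reads with several alignments or several genes, and deposited raw counts per gene. Genes with near-identical copies thus lose reads. Symbols came from GENCODE M21 (54409 of 54532 identifiers matched).

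Counts were tested with edgeR's quasi-likelihood test (4.0.16, R 4.3.3) with TMM scaling, in fits of the groups compared, over all genes with at least 1 read, with Benjamini-Hochberg adjustment and a threshold of 0.05. Differences between protocols were interaction terms. Adjusted p-values are edgeR's unless DESeq2 (1.42.0), run as an alternative, is named. SEs and 95% intervals are on the log2 scale. Levels are counts per 1000000 counted reads (CPM) with TMM scaling over all libraries, per kb of merged exons where genes are compared. All 10 members are named, and of 54 other chaperone genes at most 6 per comparison, those called with the largest change. For Bag3 and Hspa1b, the members with the widest range of condition means, the 5 genes with the highest correlation over the 9 condition means are named. Libraries held 11316580 to 81129276 counted reads, and intervals on counts cover counting error only. The scripts were tested on simulated counts.

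The labels give the culture preparation of each library, so the same number pairs libraries. Deviations of same-numbered libraries correlated with a mean r of 0.368 to 0.563 per comparison, with 4 pairs at or under 0.1 and the lowest at -0.218. The fit with the preparation as a block used edgeR's filterByExpr. Other alternatives were RLE scaling, filterByExpr alone, all 45 libraries in 1 fit, summed Hspa1a and Hspa1b counts and each preparation left out. The members and gene lists were chosen with earlier results of these data known. Python 3.11.15, pandas 2.3.3, NumPy 2.4.6 and matplotlib 3.10.9 were used for the rest.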

Additional observations from a re-analysis of the deposited data

Results flagged for a closer look

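Among the 90 groups of 5 libraries (10 genes in 9 conditions), 6 held a library whose gap to the nearest other exceeded 0.71 of the group's range, and chance flags about 1 in 20 groups. Hspa1b in LP TTX had 14.7 CPM in preparation 1 against 6.09 to 8.47 CPM in the other 4 libraries. Hspa8 in SP TTX had 1303 CPM in preparation 6 against 1024 to 1054 CPM, in 1 of the 2 libraries that did not resemble their preparation. Dnajb1 at 0.5 h Bic had 56.4 CPM in preparation 1 against 66.6 to 67.8 CPM. Dnajb5 at 1 h Bic had 152 CPM in preparation 8 against 120.1 to 129 CPM, and Hsf1 in SP TTX had 20.5 CPM in preparation 7 against 24.6 to 26 CPM. Hspb1 at 1 h Bic had 0.0531 CPM in preparation 8 against 0.154 to 0.177 CPM, where 1 read decides the value.

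The active effect on Hsph1 differed between protocols by the interaction test, with a log2 difference of -0.42 (LP minus SP, SE 0.09, adjusted p = 0.00488, lower in 5 of 5 preparations).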

How the results depend on the processing

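Of 1521 fitted values of members under the alternatives, 1464 kept their direction and side of the threshold (a change of sign among values past the threshold in neither fit counted as kept), 46 came to pass it, 11 no longer passed and none reversed. In the comparison of 2 h Bic, 6 to 7 members passed with 1 preparation left out, in the LP active effect 4 to 5 and in the LP total effect 5 to 6. In the LP passive effect the range was 0 to 2, in the spillover effect 1 to 2 and in the active effect LP minus SP 1 to 2. With the preparation as a block, 2 members passed at 1 h Bic, 3 in the SP active effect, 4 in the SP total effect, 3 in the LP passive effect, 2 in the spillover effect, 4 in LP TTX/NMDA against Control and 4 in the active effect LP minus SP. The block without preparation 6, chosen after seeing the data, gave 2 at 1 h Bic, 3 in the SP active effect, 3 in the LP passive effect, 2 in the spillover effect and 3 in the active effect LP minus SP. It lost the block's calls of Hspa8 at 2 h Bic (adjusted p = 0.158) and Bag3 in the SP total effect (adjusted p = 0.0529). It also lost that of Hspa1a in LP TTX/NMDA against Control (adjusted p = 0.0712). Beyond the calls named beside the results, the block changed no other call of a member. DESeq2 called 1 member at 0.5 h Bic, 2 in the SP active effect and 3 in the active effect LP minus SP. The stricter count filter called 2 in the last, and the fit of all 45 libraries 2 in the last and 0 in the LP passive effect. The causes were not tested. Counts over all genes ranged more widely over the alternatives, from 909 to 4978 in the LP passive effect (1485 in the main test), 801 to 4217 in the SP total effect (1351), 918 to 3879 in the SP active effect (1379), 489 to 4165 in the active effect LP minus SP (900), 35 to 187 in the SP passive effect (85), 39 to 323 in the passive effect LP minus SP (88), 104 to 924 in the spillover effect (191), 299 to 618 at 1 h Bic (357) and 2242 to 4481 at 2 h Bic (2789). With library size in place of TMM, 623 of the levels moved by less than 1 SD and 7 by more. Depth limits Hspb1, at 0 to 20 reads per library.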
